A study of Mus musculus with 2 samples.

Results

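The genes described here are 35 genes of thymocytes, the T cells that develop in the thymus, and of the thymic stroma that supports them. They were chosen by name from both tables of transcript counts, with the counts of these libraries already known, so their levels and the difference between the libraries are given as a description and no test is applied to them. Of the 35 genes, 33 had a count in at least 1 library, out of 16269 reference genes with a count in the series.

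The data come from long-read RNA sequencing of heart tissue of male B6CASTF1/J mice, F1 hybrids of the C57BL/6J and CAST/EiJ strains, aged 14 days. There is 1 group with 2 libraries, replicate 1 and replicate 2, with no treatment and no engineered allele in the labels, so no comparison of conditions exists. Each library was started from 2 µg of total RNA with added spike-in RNA. Both carry 1 donor label. The labels name 3 males in the description of each tissue sample, but do not say if they were pooled. They number the tissue samples differently, while the description of each library refers to a single tissue sample and the same pair of cDNAs, so the spread between these libraries may be partly technical. The total on reference genes was 1059016 counts for replicate 1 and 1064679 for replicate 2, which makes 1 count worth 0.944 and 0.939 CPM (counts scaled to a fixed library total). The heart label was checked with 8 cardiomyocyte markers, all of which were detected, with 43512 and 45132 counts in all; Myh6, the main adult ventricular myosin heavy chain of the mouse, had 22068 counts in replicate 1 and 24632 in replicate 2.

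In the thymus, progenitors rearrange the gene segments of the T cell receptor with the RAG1 and RAG2 recombinase, and the resulting alpha and beta chains reach the surface together with the CD3 chains. Cells that carry both the CD4 and the CD8 coreceptor are the most abundant stage, and they are selected on thymic epithelium, which attracts progenitors with the chemokine CCL25 and depends on the transcription factor FOXN1. The kinase LCK, bound to the coreceptors, starts the signal that passes through ZAP70 and the adaptor LAT. Some of these genes are not restricted to T cells: Thy1, Coro1a, Ikzf1, Tcf7, Lef1, Satb1, Ly6d and Cd4 are also expressed by other blood, stromal or neural cells.

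The 35 genes together held 32 counts in replicate 1 and 411 in replicate 2. This is 30.2 CPM against 386 CPM, or 0.00302% (exact 95% Clopper-Pearson interval 0.00207 to 0.00427) against 0.0386% (0.0350 to 0.0425) of the counts on reference genes. The ratio of replicate 2 to replicate 1 was 12.8, with an exact counting interval of 8.91 to 18.9. No molecular identifiers are named in the labels or headers, so this and every other interval covers counting error only. In bulk tissue, fewer cells of a type and less RNA per cell cannot be told apart.

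Most of the genes had a count in replicate 2, but the 5 genes with the most counts held 193 of its 411. The genes were chosen with this contrast known, so this spread over genes is a description only. A count was present for 13 genes in replicate 1 and for 33 in replicate 2, and every gene seen in replicate 1 was also seen in replicate 2. The CPM was higher in replicate 2 for 32 genes. Zap70 had equal counts, and Ptcra and Foxn1 had 0 in both. The median count per gene was 0 in replicate 1 and 7 in replicate 2.

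A summed count of at least 10 was reached by 15 of the 35 genes, and 14 of these had a CPM at least 2-fold higher in replicate 2. The exception was Thy1, with 5 and 6 counts. Over all 10162 reference genes with a summed count of at least 10, the share at least 2-fold higher in replicate 2 was 5.07%. No gene of the set was 2-fold higher in replicate 1, where 331 of all genes were. A count of 0 in replicate 1 with at least 10 in replicate 2 was found for 7 of the 35 genes, and for 13 genes in all, which is 0.128% of the 10162. Because the set was chosen with this contrast known, nothing is read from these shares. The genes just under the limit of 10 were Trbc1 with a summed count of 9, Cd3g and Cd28 with 8, and Cd5, Cd27 and Lef1 with 7. Those just over it were Cd247 and Thy1 with 11, and Cd3d and Tbata with 12.

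**Figure D1:**
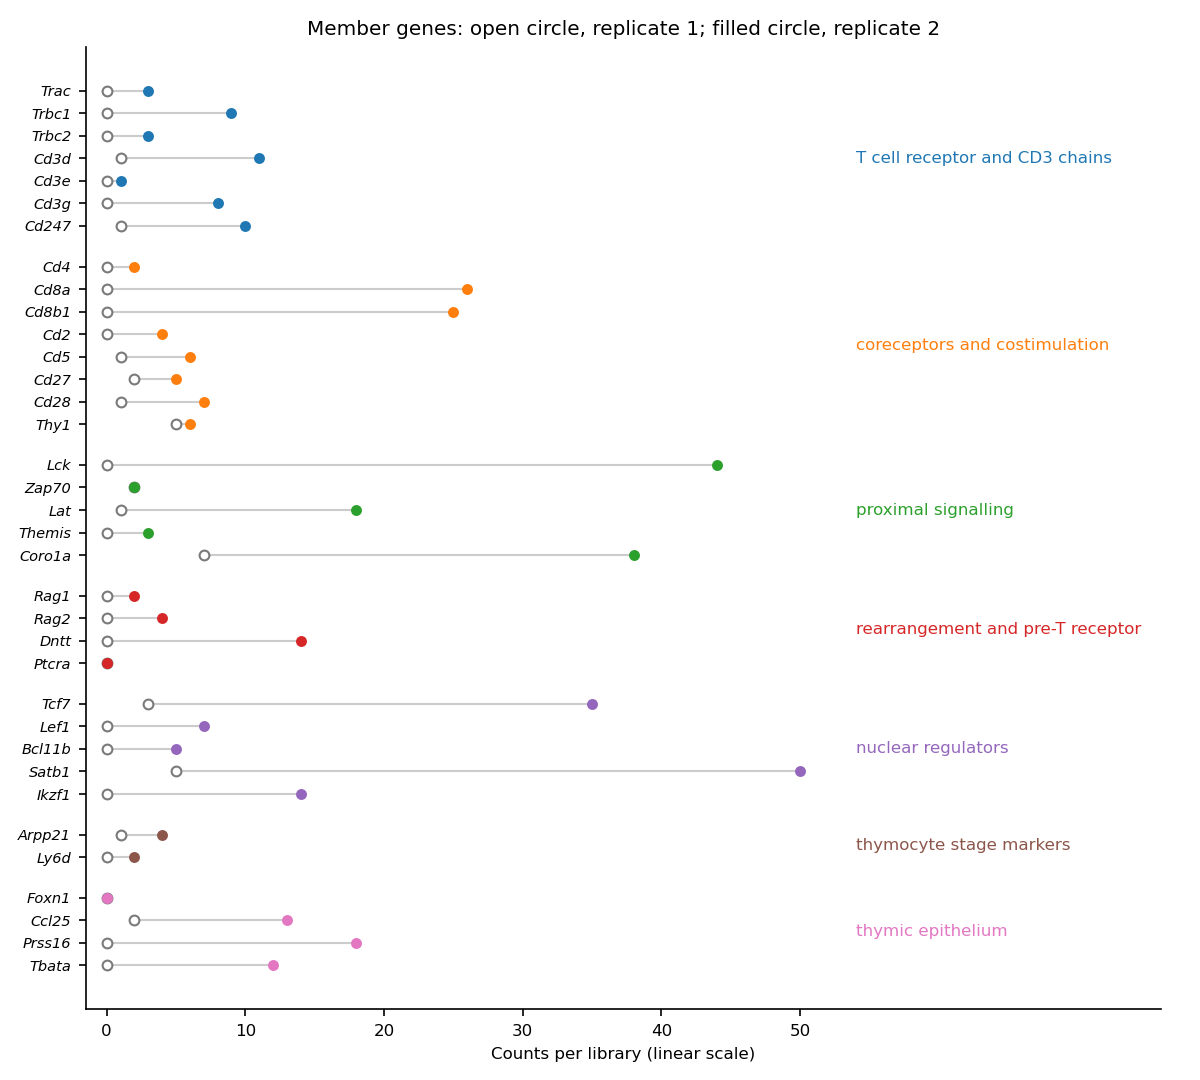
Counts of each of the 35 genes in replicate 1 (open circles) and replicate 2 (filled circles, coloured by role) on a linear axis. In replicate 1 no gene exceeds the 7 counts of Coro1a, while Lck, Coro1a, Tcf7 and Satb1 reach 35 to 50 counts in replicate 2.

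**Figure D2:**
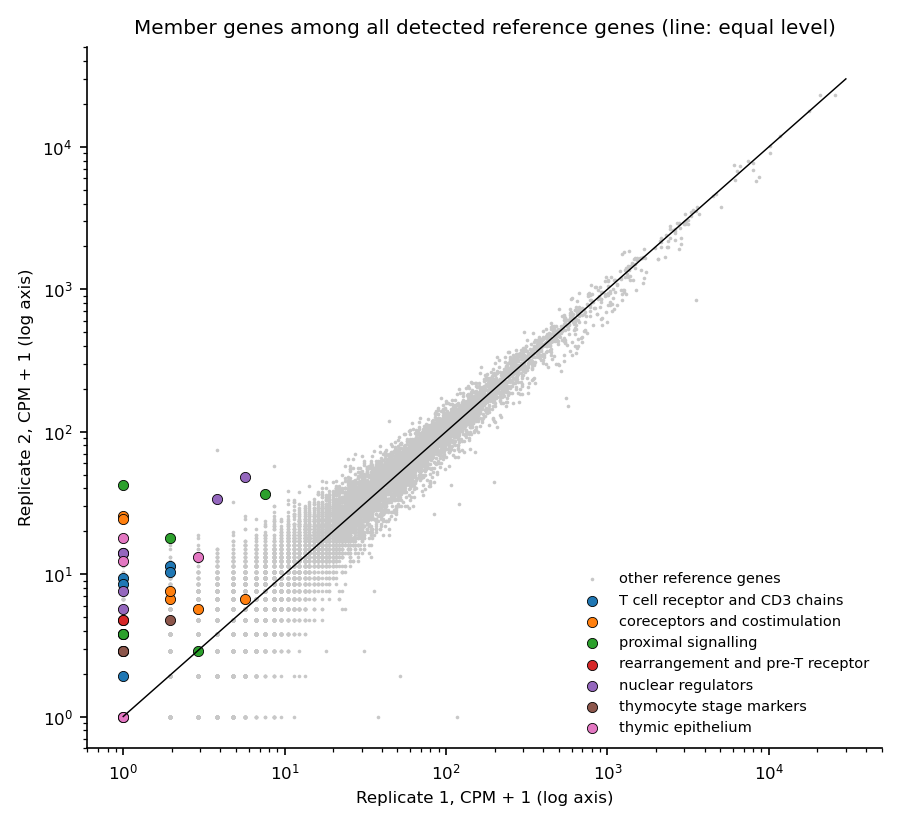
CPM plus 1 of every detected reference gene in replicate 1 (x axis) and replicate 2 (y axis), both on log axes, with the 35 genes coloured by role and the line of equal level. Nearly all of the coloured points lie above the line, many of them at 0 counts in replicate 1, and none reaches 50 CPM in either library.

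The 7 genes of the T cell receptor and CD3 chains held 2 counts in replicate 1 and 45 in replicate 2, a ratio of 22.4 (5.85 to 190). The constant region of the receptor alpha chain, Trac (chr14:54220521-54224206, mm10), had 0 counts in replicate 1 and 3 in replicate 2. The beta chain constant regions Trbc1 and Trbc2 on chromosome 6 had 0 and 9 counts, and 0 and 3 counts, in replicates 1 and 2. These 2 regions are near-identical copies, so the split of reads between them is uncertain.

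The CD3 chains carry the signal of the receptor into the cell. Cd3d had 1 count in replicate 1 and 11 in replicate 2, a ratio of 10.9 with a wide interval of 1.59 to 471. Cd247, the zeta chain, had 1 and 10 counts, a ratio of 9.95 (1.42 to 432). Cd3g had 0 and 8 counts, which is 2.65-fold higher in replicate 2 when replicate 1 is set to a floor of 3 counts per library. Folds against this floor carry no counting interval and are not lower bounds. Cd3e, which lies close to Cd3d and Cd3g on chromosome 9, had 0 and 1 count. All 11 counts of Cd3d in replicate 2 and its 1 count in replicate 1 were the annotated Cd3d-201 with 5 exons, and 7 of the 8 Cd3g counts were Cd3g-201.

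Each of the 3 Trac counts had a separate model with 5 exons, in which a different joining segment, Traj53, Traj48 or Traj37, was spliced to the 4 exons of Trac. The joins are shown because each pairs a different segment with the start of the constant region; they are reference bases of GENCODE M21, 20 on each side, the end of the joining segment in lower case and the start of Trac in capitals.
Traj53 to Trac: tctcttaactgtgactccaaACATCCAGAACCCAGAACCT
Traj48 to Trac: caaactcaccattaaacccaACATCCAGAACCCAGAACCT
Traj37 to Trac: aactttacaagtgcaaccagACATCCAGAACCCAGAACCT
The capitals are the same in each line and the lower-case letters differ. The first exons lay at chr14:54162644-54162709, chr14:54169809-54169868 and chr14:54181518-54181577. For Trbc1, 1 of 9 counts joined Trbj1-6 to the constant exons. The other 8 were on models that began at chr6:41537262, upstream of the annotated start of the gene at 41538218. The 3 Trbc2 counts held only the last exons of the gene. Segment genes outside the set, looked up after the counts were seen, held 1 count in replicate 1 (Trdv4) and 7 in replicate 2 (4 on Trbv12-2, and 1 each on Trbv13-2, Trav14-1 and Trav13n-2).

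The 8 genes of coreceptors and costimulation held 9 counts in replicate 1 and 81 in replicate 2, a ratio of 8.95 (4.49 to 20.3). The CD8 coreceptor genes made up most of it. Cd8a (chr6:71373427-71379173) had 0 counts in replicate 1 and 26 in replicate 2, 8.62-fold higher against the floor. Its neighbour Cd8b1 (chr6:71322788-71337494), which encodes the beta chain of the CD8 dimer, had 0 and 25 counts, 8.29-fold higher against the floor. Cd4 had 0 and 2 counts, both under the floor of 3, so no fold is given. The alpha and beta chains of CD8 were thus seen with nearly equal counts in replicate 2 and not detected in replicate 1. In replicate 1 the floor of 3 counts is 2.83 CPM.

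The other genes of this role had few counts. Cd2, an adhesion receptor, had 0 counts in replicate 1 and 4 in replicate 2. Cd5, which dampens receptor signals, had 1 and 6, Cd27 had 2 and 5, and the costimulatory receptor Cd28 had 1 and 7. The ratio for Cd28 was 6.96 with an interval of 0.895 to 314, and those of Cd5 and Cd27 also included 1. Thy1, a surface glycoprotein of T cells, neurons and fibroblasts, had 5 and 6 counts, a ratio of 1.19 (0.304 to 4.94).

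Cd8a was read in a long and a short form. A 31-base exon at chr6:71375888-71375918 was kept in 15 and skipped in 7 of the 22 counts that span it in replicate 2, 68.2% (45.1 to 86.1, exact 95% interval). Cd8a-201, which holds this exon, had 13 counts and encodes 247 codons, and Cd8a-202, which lacks it, had 7 counts and encodes 222. Skipping 31 bases shifts the reading frame, and the known product of the shorter form is CD8 alpha prime, with a truncated cytoplasmic tail. The joins are printed from GENCODE M21 to show what differs; in the first line the kept exon is in capitals, and in the second the first 20 bases of the next exon are.
Cd8a exon kept: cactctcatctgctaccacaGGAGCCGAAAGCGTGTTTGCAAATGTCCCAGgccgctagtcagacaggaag
Cd8a exon skipped: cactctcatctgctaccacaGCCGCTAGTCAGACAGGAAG
For Cd8b1, 22 of 25 counts were Cd8b1-201 with 6 exons. Cd28 differed from the other receptors: 6 of its 7 counts in replicate 2 and its 1 count in replicate 1 began at exons upstream of the annotated starts, and 2 of the 7 shared their first exon with the count of replicate 1. Cd27 kept a 180-base exon in 2 of 4 counts in replicate 2.

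The 5 genes of proximal receptor signalling held 10 counts in replicate 1 and 105 in replicate 2, a ratio of 10.4 (5.46 to 22.4). Lck had 0 and 44 counts, 14.6-fold higher in replicate 2 against the floor. No other gene of the set had as many counts in replicate 2 without any in replicate 1. Lat had 1 and 18 counts, a ratio of 17.9 (2.83 to 746). Coro1a, an actin-binding protein of blood cells, had 7 and 38, a ratio of 5.40 (2.38 to 14.3). Zap70 had 2 counts in each library, and Themis, which is needed for the selection of thymocytes, had 0 and 3. Coro1a and Zap70 were thus the signalling genes with more than 1 count in replicate 1.

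Lck (chr4:129548344-129573641, minus strand) has a proximal promoter used in thymocytes and a distal promoter used mainly in mature T cells. In replicate 2, 35 of the 44 counts began at the proximal start, 33 of them with the first exon of Lck-201 and 2 with that of Lck-206 and Lck-208. The distal first exon of Lck-202 was used by 6 counts, and the remaining 3 began further inside the gene. The ends of annotated models are those of the annotation and not of single reads, so starts are told apart here by their first exons. Lck-201 itself had 32 counts and encodes 509 codons. The promoters are printed from RefSeq (GRCm38.p6, the same assembly as mm10), 250 bases before to 50 after each start, 5′ to 3′ on the minus strand. Capitals mark matches, on either strand, to the Ets core GGAAGT, the Runx core TGTGGT, the Tcf/Lef core CTTTGA, the E-box CAGCTG and the TATA box TATAAA.
Lck proximal promoter, chr4:129558323-129558622: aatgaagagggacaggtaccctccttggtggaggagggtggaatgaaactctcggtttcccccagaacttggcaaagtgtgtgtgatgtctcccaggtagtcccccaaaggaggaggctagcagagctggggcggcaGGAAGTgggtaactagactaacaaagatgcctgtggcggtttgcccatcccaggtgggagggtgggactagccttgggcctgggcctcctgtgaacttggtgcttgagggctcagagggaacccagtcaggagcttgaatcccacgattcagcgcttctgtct
Lck distal promoter, chr4:129573592-129573891: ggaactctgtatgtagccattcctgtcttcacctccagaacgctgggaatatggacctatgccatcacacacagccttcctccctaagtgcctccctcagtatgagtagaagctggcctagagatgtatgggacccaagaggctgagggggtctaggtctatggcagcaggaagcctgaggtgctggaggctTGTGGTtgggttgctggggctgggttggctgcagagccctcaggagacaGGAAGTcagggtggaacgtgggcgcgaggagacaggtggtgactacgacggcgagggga
The proximal window held 1 Ets core match. The distal window held 1 Ets core and 1 Runx core match. Of the 35 genes, 25 are in the promoter table, with 48 promoters. The Ets core was in 17 of these (35.4%) and in 23.8% of all 32851 promoters of the same length, the Tcf/Lef core in 12 (25.0% against 16.0%), the E-box in 11 (22.9% against 16.3%), the Runx core in 7 (14.6% against 16.8%) and the TATA box in 4 (8.33% against 13.6%). These letters are a description of the windows and not evidence of binding.

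Lat was read mainly as Lat-201, with 13 of 18 counts in replicate 2 and the 1 count of replicate 1, and a 30-base exon was kept in 16 of the 17 counts that span it. For Coro1a, all 7 counts in replicate 1 and 34 of 38 in replicate 2 began at the first exon of Coro1a-201. Coro1a was thus read with the same first exon in both libraries.

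The 4 genes of receptor rearrangement and the pre-T receptor held 0 counts in replicate 1 and 20 in replicate 2, 6.63-fold higher against the floor. Dntt, the terminal transferase that adds bases at the joins of receptor segments, had 14 of the 20, 4.64-fold higher against the floor. Rag1 and Rag2, adjacent genes on chromosome 2 (101638282 to 101649501 and 101624718 to 101632529), had 2 and 4 counts in replicate 2. Rag1 overlaps B230118H07Rik on the same strand, and Rag2 overlaps that gene on the other strand. Ptcra, the surrogate alpha chain of the pre-T receptor, had 0 counts in both libraries. All 14 Dntt counts began at the annotated first exon. Dntt-202, of 510 codons, had 12 counts. The 60-base exon at chr19:41058567-41058626, present in Dntt-201 of 530 codons, was skipped by all 13 counts that span it (0% kept, 0 to 24.7).

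The 5 transcription and chromatin regulators held 8 counts in replicate 1 and 111 in replicate 2, a ratio of 13.8 (6.77 to 32.8), and were the role with the most counts. Satb1, a chromatin organiser of thymocytes, had 5 and 50 counts, a ratio of 9.95 (3.99 to 32.0). Tcf7, which sets the T lineage programme, had 3 and 35, a ratio of 11.6 (3.66 to 59.0). Ikzf1, which encodes the lymphoid factor Ikaros, had 0 and 14, 4.64-fold higher against the floor. Lef1, a relative of Tcf7, had 0 and 7 counts and Bcl11b, needed for commitment to the T lineage, had 0 and 5.

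Satb1 (chr17:51736187-51833290) has several starts. In replicate 2 the first exon of Satb1-208 was used by 29 counts and that of Satb1-207 and Satb1-211 by 9, with 2 counts from Satb1-204, 1 each from the first exons of Satb1-203 and Satb1-206, and 5 from exons that are no annotated first exon. In replicate 1, 2 spliced counts used the first exon of Satb1-211, 1 that of Satb1-208 and 1 an exon that is no annotated first exon. With so few counts in replicate 1, a difference in the use of starts was not detectable. Other genes overlap Satb1 on its strand, among them E430014B02Rik. A 96-base exon was kept in 5 of the 42 counts that span it in replicate 2 and in 0 of 4 in replicate 1.

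Tcf7 (chr11:52252371-52283014, minus strand) was read from the first exon of Tcf7-202 by 20 counts in replicate 2 and by all 3 in replicate 1. In replicate 2, 2 counts used the first exon of Tcf7-201, and 7 began at the same start but ran on to a splice donor further downstream, which ends no annotated first exon. A coding exon of 93 bases at chr11:52258853-52258945 was kept in 8 of the 31 counts that span it in replicate 2 (25.8%, 11.9 to 44.6) and in 0 of 3 in replicate 1. Its length is a multiple of 3, so the reading frame continues without it. An annotated coding chain was matched by 4 of the 35 Tcf7 counts. The exon is shown in capitals in the first line, and the second line joins the flanking exons, with the downstream one in capitals.
Tcf7 exon kept: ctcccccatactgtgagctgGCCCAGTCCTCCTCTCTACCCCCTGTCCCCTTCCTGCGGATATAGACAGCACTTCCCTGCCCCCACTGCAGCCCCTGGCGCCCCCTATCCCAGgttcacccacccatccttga
Tcf7 exon skipped: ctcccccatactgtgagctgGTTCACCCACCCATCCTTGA
For Ikzf1, 5 of 14 counts were single-exon models, and a 261-base exon was kept in 5 of the 8 counts that span it (62.5%, 24.5 to 91.5). This exon lies in the part of the gene that encodes DNA-binding zinc fingers. For Lef1, 5 of the 7 counts were Lef1-201 with 12 exons. None of the 5 Bcl11b counts held its full coding chain.

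**Figure D3:**
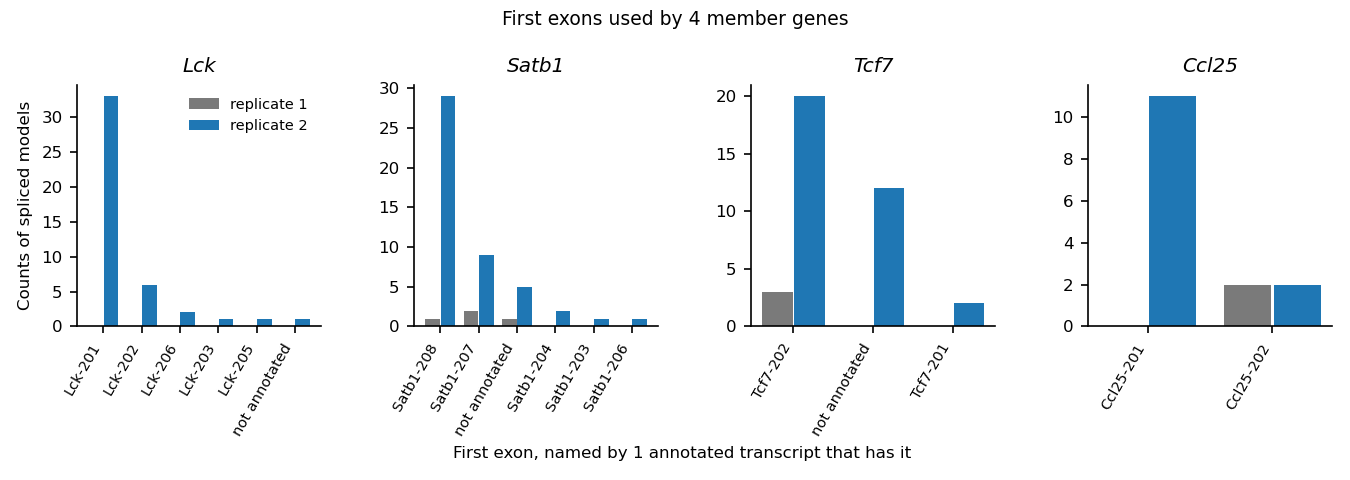
Counts of spliced models by first exon for Lck, Satb1, Tcf7 and Ccl25 in replicate 1 (grey) and replicate 2 (blue), each first exon named by an annotated transcript that has it. Lck-201 (33 counts), Satb1-208 (29), Tcf7-202 (20) and Ccl25-201 (11) lead in replicate 2, and for Ccl25 replicate 1 has its 2 counts only at the other start.

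The stage markers were low. Arpp21, an RNA-binding protein found in immature thymocytes and in brain, had 1 count in replicate 1 and 4 in replicate 2, and Ly6d, a surface marker of early lymphoid cells and epithelia, had 0 and 2. Both are too low to rank.

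The 4 genes of thymic epithelium held 2 counts in replicate 1 and 43 in replicate 2, a ratio of 21.4 (5.57 to 182). Prss16, a serine protease of cortical thymic epithelium, had 0 and 18 counts, 5.97-fold higher in replicate 2 against the floor. Tbata, a stromal regulator of the thymus that is also expressed in testis and brain, had 0 and 12, 3.98-fold higher against the floor. Ccl25 had 2 and 13, a ratio of 6.47 (1.46 to 59.0). Foxn1 had 0 counts in both libraries, where the floor of 3 counts is 2.83 and 2.82 CPM. Prss16-201, the 12-exon form of 509 codons, made up 15 of the 18 Prss16 counts. The Tbata counts were mostly fragments: 9 of 12 began at the first exon of Tbata-205, inside the gene.

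Ccl25 (chr8:4325210-4360020) was read from separate starts. The start of Ccl25-201 had 0 counts in replicate 1 and 11 in replicate 2, all of them Ccl25-201 with 144 codons. The upstream start had 2 counts in each library, so both counts of replicate 1 came from it. This upstream region overlaps Elavl1 on the opposite strand, and no label or header states whether the counting used strand. The promoters of both starts are printed from RefSeq on the plus strand with the same motifs in capitals, because the difference between the libraries lay at the downstream start.
Ccl25 downstream promoter, chr8:4349338-4349637: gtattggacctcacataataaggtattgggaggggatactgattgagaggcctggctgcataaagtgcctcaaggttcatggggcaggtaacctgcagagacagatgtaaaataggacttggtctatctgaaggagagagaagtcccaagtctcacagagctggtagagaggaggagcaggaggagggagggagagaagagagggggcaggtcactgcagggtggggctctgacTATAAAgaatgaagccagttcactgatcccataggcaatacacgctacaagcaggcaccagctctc
Ccl25 upstream promoter, chr8:4324960-4325259: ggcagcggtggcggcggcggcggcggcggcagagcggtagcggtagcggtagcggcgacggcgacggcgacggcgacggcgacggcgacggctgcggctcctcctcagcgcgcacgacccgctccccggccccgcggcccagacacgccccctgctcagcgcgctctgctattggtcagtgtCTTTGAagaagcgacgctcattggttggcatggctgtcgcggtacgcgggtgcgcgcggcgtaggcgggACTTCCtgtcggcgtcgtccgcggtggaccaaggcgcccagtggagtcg
The downstream window held 1 TATA box match a short way before the start and none of the other motifs. The upstream window held 1 Ets core and 1 Tcf/Lef core match and no TATA box.

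**Figure D4:**
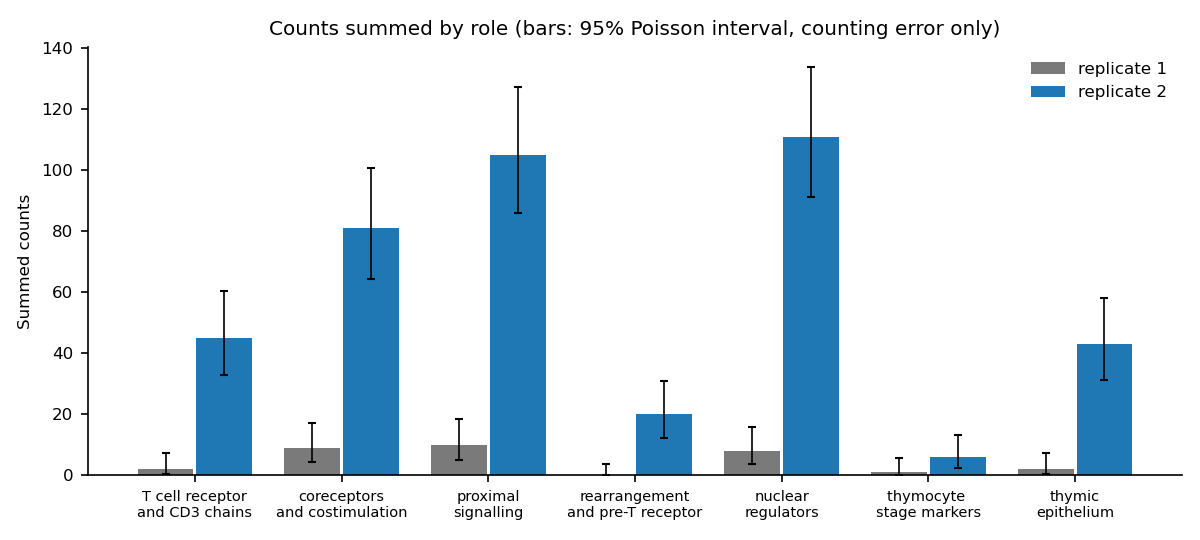
Summed counts of the 7 roles in replicate 1 (grey) and replicate 2 (blue) on a linear axis from 0, with exact 95% Poisson intervals for counting error. The nuclear regulators (8 and 111 counts) and proximal signalling (10 and 105) are highest, and the bars of replicate 1 stay at 10 counts or below.

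Completeness of the transcripts was not used to choose the genes. Of the counts of replicate 2, 263 of 411 (64.0%, 59.1 to 68.6) held the whole chain of coding exons of an annotated form with at least 50% of the gene's longest coding length, in 27 genes. In replicate 1 the share was 18 of 32 (56.3%, 37.7 to 73.6), in 8 genes. The intervals overlap. For 6 genes with counts in replicate 2, Trac, Trbc1, Trbc2, Cd3e, Bcl11b and Arpp21, no count did so. Single-exon models held 4 and 27 counts. Spliced models with 10 distinct intron chains occurred in both libraries, out of 18 in replicate 1 and 129 in replicate 2, and these held 20 of 28 and 82 of 384 spliced counts. They were chains of Coro1a (2 chains), Cd27, Cd3d, Cd5, Lat, Satb1, Tcf7, Thy1 and Zap70. The 28 spliced counts of replicate 1 limit how many chains could be shared. Neither the full coding share nor the overlap of chains was worked out for all reference genes, so nothing is read from them about these genes.

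The authors assign each model to a class: Known, ISM (part of an annotated chain of introns), NIC (annotated splice sites in another combination), NNC (with an unannotated splice site) and Genomic (unspliced or likely from genomic priming). Known models held 53.1% (34.7 to 70.9) of the counts of the 35 genes in replicate 1 and 62.3% (57.4 to 67.0) in replicate 2, against 80.7% and 80.4% for all reference genes. In replicate 2 the 35 genes had 13.6% ISM, 13.4% NIC, 7.54% NNC and 3.16% Genomic counts, against 8.42%, 5.28%, 3.27% and 2.63% over all genes. The 35 genes thus held a smaller share of counts on Known models than all genes in both libraries. The intervals treat counts as independent, but Known counts clustered by gene. In replicate 2 they were 3 of 35 for Tcf7 and 11 of 11 for Cd3d. The share over all genes is weighted by counts, so abundant genes weigh most in it. Genes of a similarly low level were not compared, and the difference was not tested.

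**Figure D5:**
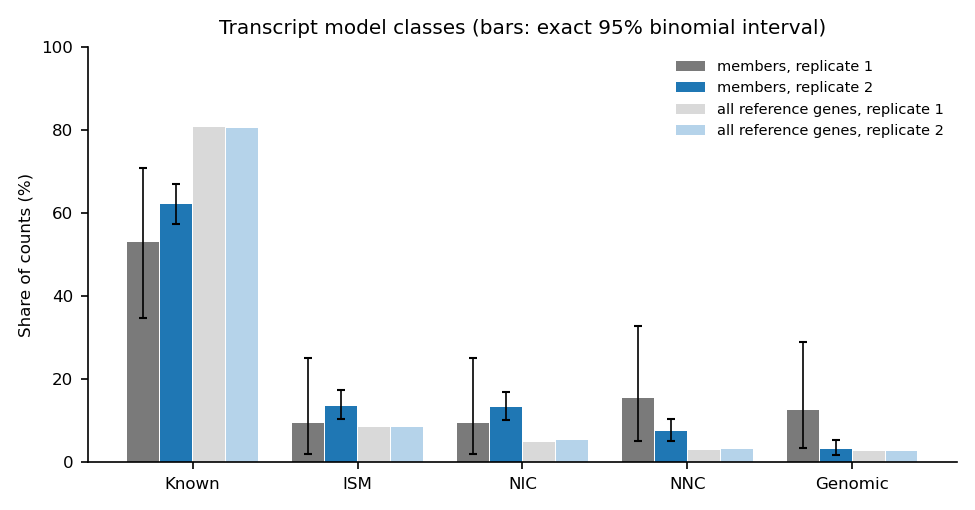
Share of counts by class of transcript model for the 35 genes and for all reference genes in each library, with exact 95% binomial intervals on the shares of the 35 genes. In replicate 2 Known models hold 62.3% of the counts of these genes and 80.4% of all counts.

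Other genes of the pathway were taken from lists that hold none of the 35. These lists were also chosen with earlier results of these data known, so the calls in them are no independent check. Those with 10 or more counts in all were compared between the libraries by an exact binomial test (two-sided, with the library totals as the expected split), and p-values were adjusted by Benjamini-Hochberg across 10162 genes. The test compares these 2 libraries by counting error and holds no spread between samples. As an alternative, edgeR's exact test used a common dispersion estimated from these same 2 libraries taken as 1 group. The difference between them is thus part of that dispersion, so a call lost by it does not show that a difference is absent. It called 163 genes (1.6%) higher in replicate 2 and 168 (1.65%) higher in replicate 1 at an adjusted p under 0.05, and the median log2 ratio (replicate 2 over replicate 1, CPM plus 1) of all tested genes was 0.08.

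Among 40 other genes of T cell receptor signalling, 14 were tested, 2 were called higher in replicate 2 and 0 in replicate 1, with a median log2 ratio of 0.26. Rac2, a GTPase of blood cells, had 4 and 33 counts (log2 ratio 2.74, adjusted exact binomial p = 9.4e-05), and Ptpn6, the phosphatase SHP-1, had 1 and 15 (2.96, adjusted exact p = 0.021). The call of Ptpn6 was lost when only models with a reference identifier were counted (adjusted p = 0.086) and with edgeR's exact test and a common dispersion (adjusted p = 0.25), and that of Rac2 was kept in both (7e-05 and 0.011). The most abundant members are widely expressed and were not called: Cd81 had 2568 and 2447 counts, Grb2 120 and 162, Ppp3ca 120 and 135 and Fyn 66 and 81. The 23 members with 1 to 9 counts summed to 14 in replicate 1 and 89 in replicate 2. Ptprc, the pan-leukocyte CD45, had 0 and 9, and the adaptor Skap1 0 and 8. Others did not differ this way: Lcp2 and Was each had 1 and 0 counts, and Prkcq had 3 and 3. These 5 were chosen after their values were seen. Of all 40 genes, 30 had a higher CPM in replicate 2 and 7 in replicate 1. The same split and low-count sums over all reference genes were not worked out, here or for the lists below. Replicate 2 also detected more reference genes (14898 against 14540), so nothing is read from these splits and sums.

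Of 42 other thymocyte stage genes, 19 were tested, with a median log2 ratio of -0.07. None was called higher in replicate 2 and 1, Tmsb10, was called higher in replicate 1, with 566 and 462 counts (log2 ratio -0.30, adjusted exact p = 0.033); with the trend of the ratio on transcript length removed its log2 ratio was 0.05. The chemokine receptor Ccr9, which binds CCL25, had 1 and 13 counts and was not called (log2 ratio 2.76, adjusted exact p = 0.055; chosen after its values were seen). Some genes, also chosen after their values were seen, went the other way and were not called: Zbtb7b had 24 and 11 counts and Notch3 16 and 7. The members under 10 counts summed to 11 and 53. Of all 42 genes, 23 had a higher CPM in replicate 2 and 15 in replicate 1.

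Markers of other lymphocytes were low in both libraries. Of 12 genes of mature effector and regulatory T cells, 11 were at 0 in both, among them Foxp3 and Ifng, and the sum was 0 and 1 count. Of 15 genes of gamma-delta and innate lymphocytes, 11 were at 0 in both. The 15 B cell genes held 16 and 28 counts, of which Ighm had 8 and 21 (log2 ratio 1.28, adjusted exact p = 0.28, not called).

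Of 28 other genes of thymic epithelium, 10 were tested and 2 were called higher in replicate 2, with a median log2 ratio of 0.74. Cd83 had 14 and 43 counts (log2 ratio 1.54, adjusted exact p = 0.0083) and the class II gene H2-Aa 4 and 20 (2.05, adjusted exact p = 0.048). Both are also expressed by dendritic cells and other antigen-presenting cells. With edgeR's exact test and a common dispersion neither was called (adjusted p = 0.49 and 0.58), and H2-Aa was also lost with TMM scaling (0.052), median-of-ratios scaling (0.051), models with a reference identifier only (0.1) and a minimum summed count of 1 (0.077). The 11 members with 1 to 9 counts summed to 10 in replicate 1 and 26 in replicate 2. Of the defining markers, Aire and Krt5 had 0 in both libraries. Among epithelial genes chosen after their values were seen, Psmb11 and Epcam each had 0 and 1 count, Pax1 0 and 3, Krt17 0 and 8, Krt8 4 and 11 (log2 ratio 1.25, adjusted exact p = 0.59) and Krt18 8 and 26 (1.57, adjusted exact p = 0.077), none of them called. Ctsl, the most abundant, had 241 and 273 counts and was not called.

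Markers of atrium, fat and red blood cells were also called, all of them higher in replicate 1. Of the 7 tested of 8 atrial genes, 5 were called higher in replicate 1; Nppa, the atrial natriuretic peptide, had 3757 and 889 counts, and the 8 genes 5425 and 1446 (replicate 1 first). Of 5 tested fat genes, 3 were called higher in replicate 1, among them the brown fat gene Ucp1 with 32 and 2 counts (log2 ratio -3.44, adjusted exact p = 3.7e-06). Of 5 red blood cell genes, 4 were called higher in replicate 1, with 18269 and 13620 counts in all. With the trend on transcript length removed, Hba-a2 (log2 ratio -0.087, adjusted p = 0.51) and Hbb-bt (-0.0056, adjusted p = 1) were no longer called, and none of the 4 was with edgeR's exact test and a common dispersion (adjusted p = 1 for each). By that test the 5 atrial calls and Ucp1 were kept, and the other fat calls, Cidea and Fabp4, were lost. Of 10 tested macrophage and dendritic cell genes, Lyz2 was called, with 97 and 182 counts (log2 ratio 0.89, adjusted exact p = 3.9e-05), and of 22 tested cell cycle genes Tubb5 was, with 211 and 323 (0.60, adjusted exact p = 0.00015), both higher in replicate 2; with edgeR's exact test neither was called (adjusted p = 0.72 and 1). The 8 cardiomyocyte genes were called in both directions. Myh6 (log2 ratio 0.15) and Actc1 (0.09) were called higher in replicate 2, and Tnni3 (-0.45), Pln (-0.31) and Myl2 (-0.26) higher in replicate 1. With edgeR's exact test none of them was called. All 8 lung markers were at 0 in both libraries, 8 thyroid and parathyroid genes held 4 and 7 counts, and 8 genes of lymphatic vessels and lymph nodes held 60 and 58, with none of 5 tested called. The part of these differences in those of the 35 genes was not tested.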

How the data were processed

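Long-read RNA sequencing of mouse heart gave 2 libraries of 1 group. The authors deposited, per the file headers, a whole-number count of reads for each transcript model, without normalization, and an annotation with the models of each library on mm10 with GENCODE M21. The aligner and filters were not given in the sources used here. Model counts were added to genes, and CPM uses the total over reference genes (1059016 and 1064679 counts). Where a library had 0 counts, the fold was set against a floor of 3 counts in that library. Such a fold takes the count of the other library as it stands, so it carries no counting interval and is not a lower bound. Intervals are exact at 95%.

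The 35 genes and all lists were chosen with earlier results of these data known. Other genes with a summed count of at least 10 were tested with an exact binomial test (scipy 1.17.1), with Benjamini-Hochberg adjustment and a threshold of 0.05. Log2 ratios use a pseudocount of 1 CPM. In the alternatives edgeR 4.0.16 in R 4.3.3 gave TMM scaling and an exact test with a common dispersion. That dispersion was estimated from the 2 libraries under comparison, taken as 1 group, and so contains their difference. First exons, exons kept or skipped and coding chains came from the deposited models set against GENCODE M21, and promoters from the RefSeq table. With values the text names every one of the 35 genes that has a count and, of each other list, at most the 4 genes with the most counts, the genes past the threshold and defining markers at 0, and it states where a gene was chosen after its values were seen.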

Additional observations from a re-analysis of the deposited data

How the results depend on the processing

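The ratio of the summed counts of the 35 genes (12.8) was 12.1 to 15.0 under the other models, scalings and sets of genes tried, including 2 chosen after seeing the data (receptor segments added, 12.6, and single-exon models left out, 13.6). It was 21.3 without 8 genes that other cells also express (Coro1a, Ikzf1, Ly6d, Thy1, Lef1, Tcf7, Satb1 and Cd4). The number of the 35 genes at least 2-fold higher in replicate 2, 14 of the 15 that entered with a minimum summed count of 10, was 22 of 23 with a minimum of 5, 31 of 33 with 1 and 6 of 6 with 20. Over all genes the share was 5.07%, and 7.18%, 16.3% and 2.68% under those minimums. The mean CPM of the set was 208 over both libraries and ranged from 30.2 to 386 when either was left out, and the share of Known models (61.6% of both libraries' counts together) ranged from 53.1% to 62.3%. In the other lists, 8 genes were called higher in replicate 2 and 16 in replicate 1. With edgeR's exact test and a common dispersion these were 1 and 6, and with the trend on transcript length removed 10 were higher in replicate 1. With that trend removed the log2 ratio of Myh6 was -0.036, of Myl2 0.028 and of Tmsb10 0.048, each of the opposite sign. The trend itself would move the log2 ratios of the 35 genes by -0.60 to 0.19. No paired analysis was possible because the series holds 1 group. A count of 0 allows up to 2.83 CPM, so genes at 0 in both libraries were not detectable at this depth.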
